A study of Mus musculus with 6 samples.

Results

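The genes described are 10 members of the MHC class I antigen presentation pathway, taken by symbol from the deposited count tables: the heavy chains H2-K1, H2-D1 and H2-T23, the light chain B2m, the peptide transport and loading genes Tap1, Tap2 and Tapbp, and the immunoproteasome subunits Psmb8, Psmb9 and Psmb10. All 10 were found among the 12911 listed genes and all 10 passed the filter on low counts, which kept 12786. The libraries hold RNA of glomerular endothelial cells, the capillary cells of the kidney filter, from eNOS-null mice, which lack endothelial nitric oxide synthase. The 3 STZ libraries come from mice treated with STZ (streptozotocin, which kills the insulin-producing beta cells and serves to model diabetes), and the 3 control libraries come from untreated mice, so the null allele is carried by both groups and no wild-type group is compared. Each library pools RNA of 4 mice, and cells were sorted by EYFP fluorescence after glomeruli had been collected with magnetic beads and digested. Strain, age, sex and the promoter that drives EYFP are not given in the labels.

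Class I molecules display peptides from inside the cell to CD8+ T cells. Proteasomes cut proteins into peptides, the TAP transporter carries the peptides into the endoplasmic reticulum, and tapasin, calreticulin and ERp57 help to load them onto a heavy chain paired with beta-2-microglobulin. Interferons raise the transcription of most of these genes, and they also induce catalytic subunits that replace the constitutive ones to form the immunoproteasome. Endothelial cells carry class I molecules on their surface without stimulation, which places them in view of circulating T cells.

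The members share genome position as well as function. B2m lies on mm10 chromosome 2 (122147687 to 122153082, plus strand) and Psmb10 on chromosome 8 (105935728 to 105938392, minus strand). The other 8 lie on chromosome 17 between 33919478 (the start of Tapbp) and 36032701 (the 5′ end of H2-T23, minus strand). Psmb9 and Tap1 lie head to head with 225 bases between their 5′ ends. Psmb8 follows Tap1 after 969 bases, and Tap2 follows Psmb8 after 3024 bases. The upstream sequences of the chain genes that carried the largest differences are shown with the stretch that Psmb9 and Tap1 share, from RefSeq in build GRCm38.p6. Each is written 5′ to 3′ on the coding strand (for the shared stretch, the strand of Tap1) and ends at the base before the listed start. Capitals mark matches to 4 motifs searched on both strands: a kappa B-like motif (GGG, any 2 bases, TT, any base, CC), a motif like an interferon-stimulated response element (GAAA, any 2 bases, GAAA), a motif like a gamma-activated site (TTCNNNGAA) and the box CCAAT. In B2m the first 2 kinds of match lie 3 bases apart, and no matches overlap in the sequences shown.
H2-K1 (chr17:34000334-34000583, minus strand): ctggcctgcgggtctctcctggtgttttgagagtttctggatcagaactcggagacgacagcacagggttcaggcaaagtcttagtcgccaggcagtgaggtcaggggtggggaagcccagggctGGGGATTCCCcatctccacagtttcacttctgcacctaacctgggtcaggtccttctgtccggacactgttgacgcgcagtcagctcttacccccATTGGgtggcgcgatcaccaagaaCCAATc
H2-D1 (chr17:35262844-35263093, plus strand): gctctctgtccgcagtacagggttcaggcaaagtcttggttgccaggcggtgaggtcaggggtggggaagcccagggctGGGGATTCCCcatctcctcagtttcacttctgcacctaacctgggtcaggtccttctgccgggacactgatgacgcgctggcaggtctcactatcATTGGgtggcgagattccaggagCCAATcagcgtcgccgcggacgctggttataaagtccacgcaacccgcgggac
B2m (chr2:122147437-122147686, plus strand): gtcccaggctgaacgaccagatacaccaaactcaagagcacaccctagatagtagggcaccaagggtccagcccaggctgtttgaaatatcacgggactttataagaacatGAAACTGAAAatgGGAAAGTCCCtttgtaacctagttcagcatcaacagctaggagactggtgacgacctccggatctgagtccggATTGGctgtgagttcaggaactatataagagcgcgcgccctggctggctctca
Psmb9 and Tap1 (chr17:34187331-34187555, plus strand): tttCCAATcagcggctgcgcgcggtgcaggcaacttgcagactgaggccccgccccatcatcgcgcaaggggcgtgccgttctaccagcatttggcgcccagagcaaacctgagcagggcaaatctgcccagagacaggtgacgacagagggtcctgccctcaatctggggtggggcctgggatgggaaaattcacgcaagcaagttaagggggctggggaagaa

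H2-K1 and H2-D1 had the same kappa B-like match, GGGGATTCCC. Over these 250 bases they were identical at 180 of 203 aligned positions (88.7%), with gaps left out. On the same measure B2m was 61.3% identical to H2-K1 and 62.2% to H2-D1. B2m had a kappa B-like match with other letters, GGAAAGTCCC. Upstream sequence was matched for 9 members, of which 3 held the kappa B-like letters (H2-K1, H2-D1 and B2m), 2 the response element letters (B2m and H2-T23), 1 the gamma-activated site letters (Psmb8) and 7 a CCAAT. Among 32851 upstream sequences of that length in the RefSeq table, 4.11% held the kappa B-like letters, 2.98% the response element letters, 7.02% the gamma-activated site letters and 33.8% a CCAAT. Motif letters were chosen with the sequences in view, and the H2-K1 and H2-D1 sequences are alike, so these shares do not test for an excess. The matches describe letters and not binding, and a site with other letters was not marked.

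Total counts were 10734376 to 12662371.5 in STZ libraries and 4387339 to 8751732.5 in control libraries, so every STZ library was deeper. Control pool 3, the shallowest, was the lowest of its group in 9 of 10 members, and STZ pool 3 the lowest of its group in 8 of 10. Without control pool 3, 2 members were called higher and 0 lower, as with all 6. The sex-linked genes split the groups: Xist stood at 0.687 ± 0.261 CPM (counts scaled to the normalised library size, here and throughout; SD, n = 3 each) in STZ and 709 ± 32.4 CPM in control pools, and the Y-linked Ddx3y at 135 ± 4.09 CPM in STZ and 3.07 ± 0.375 CPM in control pools. Treatment and sex of the pools cannot be told apart here.

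Of the class I chain genes 2 were higher in STZ pools, and 0 of the 6 transport, tapasin and immunoproteasome members were called. B2m and H2-D1 passed the test and rose, by 0.61 ± 0.12 and 0.47 ± 0.10 on the log2 scale (SE, 3 pools against 3; adjusted p = 0.00596 and 0.0117 by the edgeR quasi-likelihood test, Benjamini-Hochberg adjustment over all tested genes). H2-K1 and H2-T23 were higher in every STZ pool than in every control pool but did not pass. Tap1, Tap2, Tapbp, Psmb8, Psmb9 and Psmb10 had log2 fold changes between -0.10 and 0.06, and their groups overlapped. Thus 2 of 10 members were called higher and 0 lower at an adjusted p of 0.05, where 5.47% of all tested genes were called higher and 4.32% lower (9.78% in either direction). At an unadjusted p under 0.05, 4 members were higher and 0 lower, where 12.2% of all tested genes were higher and 12% lower. DESeq2 called 3 higher and 0 lower, and limma-voom called 2 higher and 0 lower. Summed endothelial markers were also higher, at 17958 to 19235 CPM in STZ pools and 12810 to 14223 CPM in control pools. On the log2 scale the median difference was 0.05 over the 10 members and -0.01 over all tested genes.

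B2m, the light chain common to all class I molecules, had 3406, 3089 and 3135 CPM in STZ pools 1, 2 and 3, against 2174, 2393 and 1730.2 CPM in control pools 1, 2 and 3. The lowest STZ pool lay above the highest control pool. Means were 3209.9 ± 171 CPM in STZ and 2099 ± 337 CPM in control (SD, n = 3 each), a 1.53-fold difference with a 95% interval of 0.35 to 0.88 for the log2 fold change. Per kilobase of transcript B2m ranked 1 among the 12911 listed genes, at 3741 CPM per kb in STZ and 2446 CPM per kb in control pools. Its call held without each of the 6 libraries in turn, with adjusted p from 0.00389 to 0.0379.

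H2-D1, a classical heavy chain (1736 bases, NM_010380), had 1832, 1846 and 1700.4 CPM in the STZ pools against 1316, 1416 and 1149 CPM in the control pools. The groups did not overlap, and the means of 1793 ± 80.3 CPM in STZ and 1294 ± 135 CPM in control (SD, n = 3 each) differed 1.39-fold. Leaving out control pool 1 put the adjusted p of H2-D1 at 0.0533 (log2 fold change 0.48) and leaving out STZ pool 1 put it at 0.0618 (0.45), so either library decides the call. The table also lists H2-L within the span of H2-D1 on the same strand (35263123 to 35266730). H2-L was chosen after its values were seen and stood at 600.5 ± 16.4 CPM in STZ and 447 ± 25.8 CPM in control pools, a log2 fold change of 0.42 ± 0.09 (adjusted p = 0.00964, edgeR; 0.0589 without STZ pool 1). Its deposited count was 0.324 to 0.344 of the H2-D1 count in STZ libraries and 0.329 to 0.364 in control libraries. The 2 rows cover the same bases and are not independent.

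H2-K1, the other classical heavy chain (mm10 chromosome 17, 33996012 to 34000333, minus strand), had 1565, 1523 and 1454 CPM in STZ pools against 1274, 1259 and 939.8 CPM in control pools. Every STZ pool lay above every control pool, with means of 1514 ± 56.4 CPM in STZ and 1157 ± 189 CPM in control (SD, n = 3 each). The log2 fold change was 0.39 ± 0.12 (95% interval 0.13 to 0.64), and the adjusted p was 0.0591. DESeq2 (adjusted p = 0.0160) and edgeR on counts thinned to equal depth (0.0484) called H2-K1 higher. Without control pool 3, the lowest library, the log2 fold change was 0.26 (adjusted p = 0.0855).

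H2-T23 encodes Qa-1, a nonclassical heavy chain that presents class I leader peptides to the CD94/NKG2 receptors of natural killer cells. It had 189, 192 and 167 CPM in STZ pools against 159, 163 and 131 CPM in control pools. The groups did not overlap, although the lowest STZ pool lay close to the highest control pool. The log2 fold change was 0.27 ± 0.10 (95% interval 0.05 to 0.50; adjusted p = 0.117, edgeR). Per kilobase H2-T23 stood at 139 CPM per kb in STZ and 114 CPM per kb in control pools, under H2-D1 (1033 CPM per kb in STZ and 745 in control pools) and H2-K1 (919.8 CPM per kb in STZ and 703 in control pools).

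**Figure D1:**
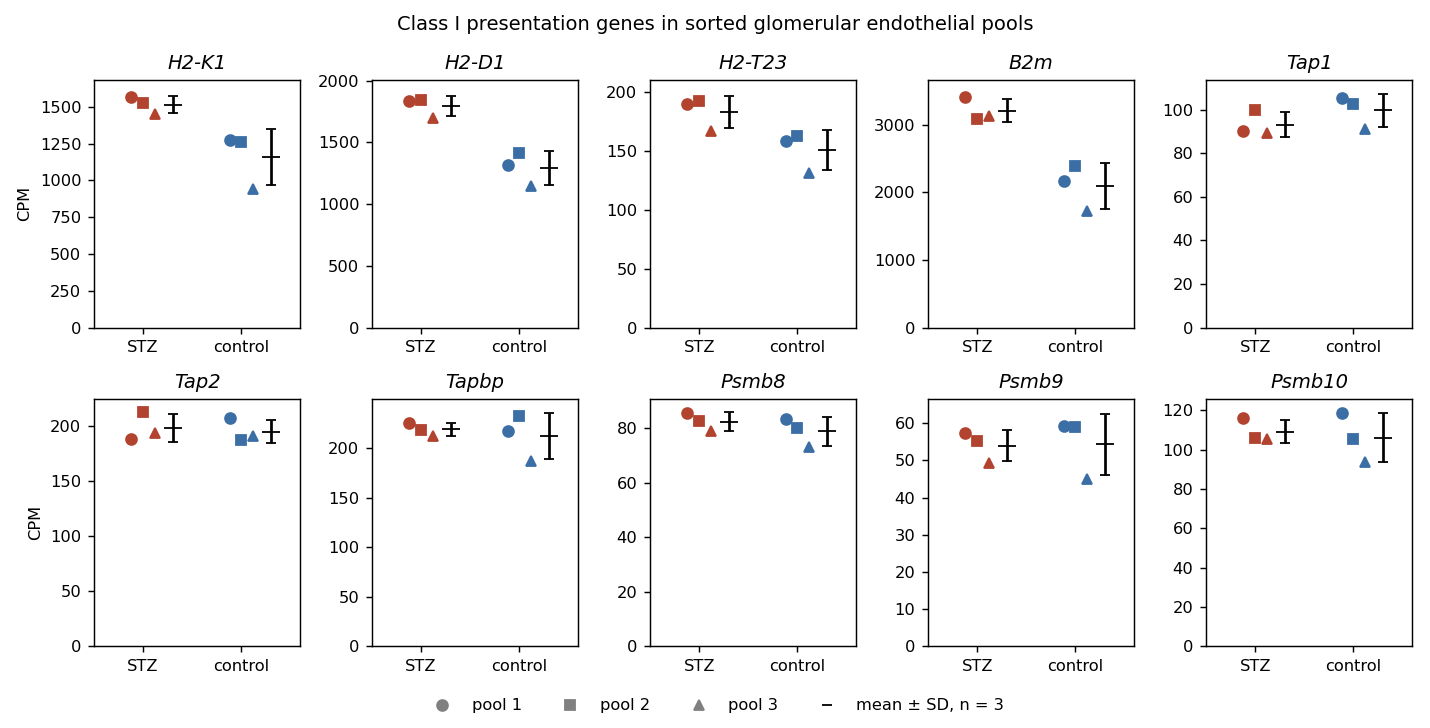
CPM of the 10 members in each library, with STZ pools left of control pools, symbols by pool number and bars for mean ± SD (n = 3). The STZ pools lie above all control pools for H2-K1, H2-D1, H2-T23 and B2m, and the groups overlap for the other 6 genes.

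All 4 chain genes had STZ pools wholly above control pools, as had 15.4% of all tested genes (29.1% lay wholly above or wholly below). Their summed share of a library's counts was 0.630% to 0.674% in STZ libraries and 0.408% to 0.541% in control libraries. The summed CPM of the 3 heavy chains was 3321 to 3587 in STZ pools and 2219.8 to 2838 in control pools. Heavy chain genes are close paralogs. Of the 50-base windows of the GENCODE transcripts, 8.79% in H2-K1, 14.3% in H2-D1 and 28.8% in H2-T23 occurred also in a transcript of another gene, against 0% in B2m, Psmb8, Psmb9 and Psmb10 and 0.74% to 2.24% in Tap1, Tap2 and Tapbp. H2-K1 shared most with H2-D1 (6.94%), H2-D1 with H2-Q1 (7.40%) and H2-T23 with H2-T-ps (12.9%), so the summed heavy chain level is open to the same sharing. How the authors counted reads that fit several genes is not given in the sources used here. Heavy chain values are thus uncertain, to an extent that the window shares do not fix. H2-D1 also overlaps the H2-L row, whereas B2m shared 0% of its windows. H2-T23 also lies within the span of an antisense row, A930015D03Rik, at 10.1 CPM in STZ and 10.7 CPM in control pools.

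B2m was also set against the sum of the member heavy chains H2-K1, H2-D1 and H2-T23. Other class I chains were left out of the sum, among them H2-Q4 (means of 514 CPM in STZ and 444.5 CPM in control pools). The ratio is therefore not one to all heavy chains. Within each library the ratio of B2m to the summed heavy chains, in counts per kilobase, was 1.85, 1.69 and 1.84 in STZ pools against 1.53, 1.64 and 1.51 in control pools. The groups did not overlap, and the difference of 0.20 on the log2 scale gave p = 0.1 in a two-sided exact permutation test, the smallest p that 3 pools against 3 allow. Adjusted over the 4 ratios tested, p was 0.267.

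Among the peptide transport and loading genes 0 of 3 were called, at an unadjusted p under 0.05 or by DESeq2 or limma-voom as well. Tap1 and Tap2, the chains of the peptide transporter, are ATP-binding cassette proteins that work as a pair. Tap1 had 90.4, 99.8 and 89.4 CPM in STZ pools against 105, 103 and 91.2 CPM in control pools, a log2 fold change of -0.10 ± 0.09 (95% interval -0.30 to 0.10; adjusted p = 0.558). Tap2 had 188, 213 and 193 CPM in STZ pools against 207, 187 and 191 CPM in control pools (0.02 ± 0.09, interval -0.17 to 0.22; adjusted p = 0.910). Tapbp encodes tapasin, which bridges the transporter and the empty heavy chain. It had 225, 218 and 213 CPM in STZ pools against 217, 233 and 187 CPM in control pools (0.04 ± 0.10, interval -0.17 to 0.25; adjusted p = 0.840). Per kilobase the transporter genes were unequal, with Tap1 at 31.6 and Tap2 at 79.6 CPM per kb in STZ pools, and Tap1 at 33.8 and Tap2 at 78.3 CPM per kb in control pools.

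Of the 3 inducible catalytic subunits 0 were called by edgeR, DESeq2 or limma-voom, and 0 had an unadjusted p under 0.05. Psmb8 (LMP7) had 85.8, 82.8 and 78.9 CPM in STZ pools against 83.4, 80.0 and 73.1 CPM in control pools, a log2 fold change of 0.06 ± 0.09 (95% interval -0.13 to 0.26; adjusted p = 0.740). Psmb9 (LMP2), which shares its upstream stretch with Tap1, had 57.3, 55.1 and 49.3 CPM in STZ pools against 59.1, 58.9 and 44.8 CPM in control pools (-0.02 ± 0.12, interval -0.28 to 0.23; adjusted p = 0.940). Psmb10 (MECL-1) had 116, 106 and 106 CPM in STZ pools against 119, 106 and 93.7 CPM in control pools (0.04 ± 0.10, interval -0.18 to 0.25; adjusted p = 0.863). The highest upper bound among the 6 transport, loading and proteasome genes was 0.26 on the log2 scale, under the fitted value of each chain gene but above the lower bounds of H2-D1, H2-K1 and H2-T23.

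**Figure D2:**
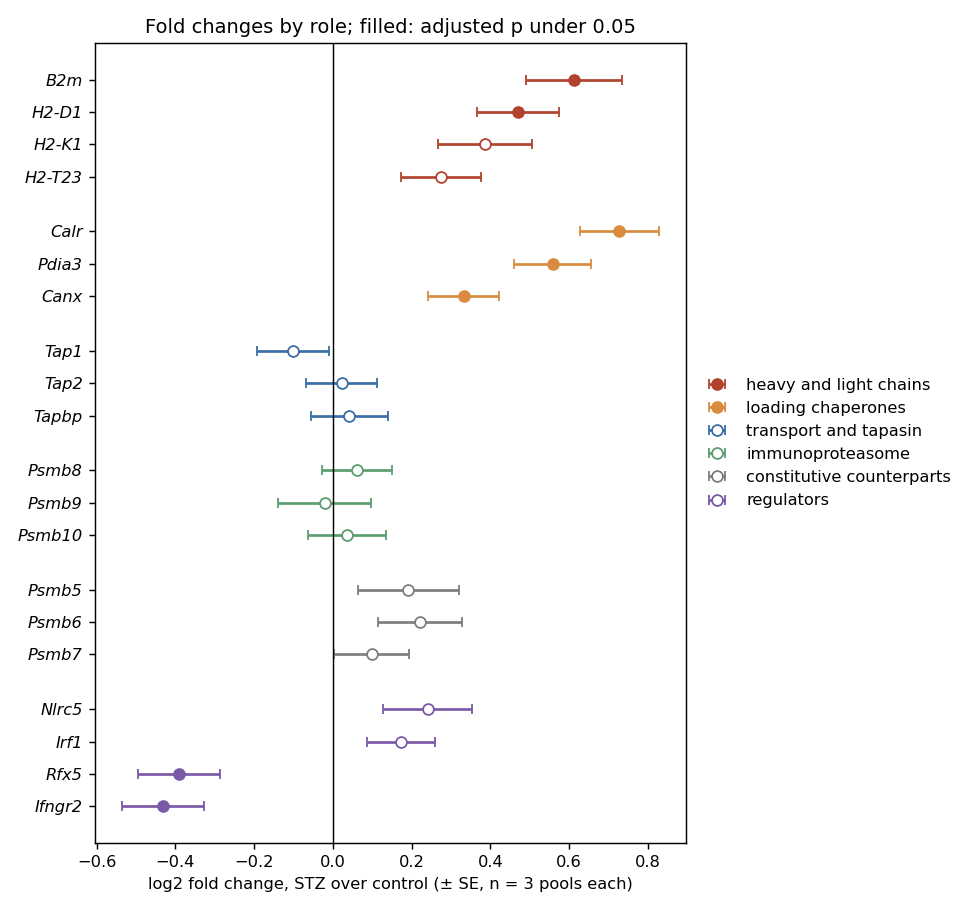
Log2 fold change of STZ over control pools (horizontal axis, ± SE, 3 pools each) for the members and for named partners and regulators, coloured by role; filled symbols passed an adjusted p of 0.05. Chain genes and the loading chaperones drawn lie right of 0, from 0.27 to 0.73, while transporter, tapasin and immunoproteasome genes lie between -0.10 and 0.06. The chaperones drawn, Calr, Pdia3 and Canx, are the 3 called higher among 11 loading partners. Of those 11, 7 lay above 0, and the uncalled ones are not drawn.

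A ratio of 2 genes within a library does not depend on how libraries are scaled. Each of the 4 chain genes was divided by each of the 6 transport, loading and proteasome genes, a description chosen after the values were seen and given without a test. In 23 of the 24 ratios every STZ pool lay above every control pool, and in 1, H2-T23 over Tap2, the groups overlapped. The ratios share genes and libraries and are not independent of each other. The 4 chain genes already lay wholly above and the other 6 had small fold changes, so the count adds little to those results. No share for other gene pairs is given. B2m over Tap1, in counts per kilobase, was 130, 106 and 121 in STZ pools against 71.0, 80.1 and 65.2 in control pools. H2-K1 over Psmb8 was 13.6, 13.7 and 13.7 in STZ pools against 11.3, 11.7 and 9.55 in control pools. The ratio of group means ran from 1.16 (H2-T23 over Psmb8) to 1.65 (B2m over Tap1).

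**Figure D3:**
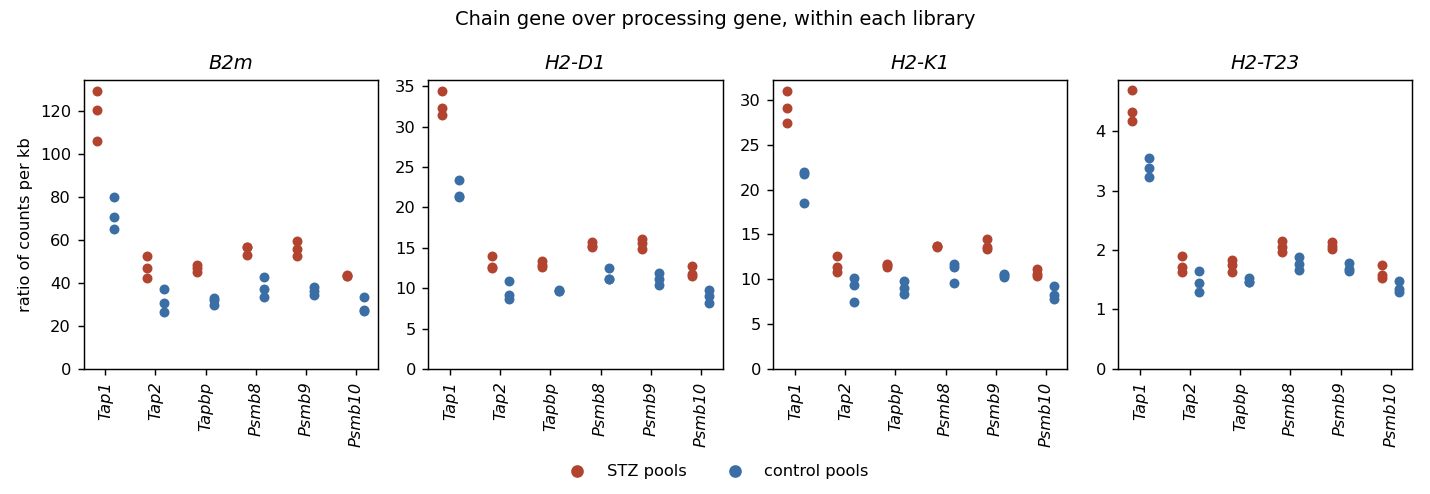
Ratio of counts per kilobase of each chain gene (panels) to each transport, loading or immunoproteasome gene (horizontal axis) in the 3 STZ pools, drawn left, and the 3 control pools, drawn right. STZ pools lie above control pools in 23 of 24 ratios, which share genes and libraries.

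Each immunoproteasome subunit was set against the constitutive subunit whose place it takes. Psmb8 over Psmb5 was 0.867, 0.932 and 0.858 in STZ pools against 0.935, 0.876 and 1.17 in control pools, a log2 difference of -0.16 (exact permutation p = 0.2, two-sided; 0.267 adjusted over the 4 ratios). Psmb9 over Psmb6 was 0.682, 0.763 and 0.585 in STZ pools against 0.853, 0.767 and 0.752 in control pools (-0.23, exact permutation p = 0.2; 0.267 adjusted). Psmb10 over Psmb7 was 0.864, 0.944 and 0.792 in STZ pools against 0.976, 0.892 and 0.819 in control pools (-0.05, exact permutation p = 0.7; 0.7 adjusted). The groups overlapped in all 3 ratios. Over all 6 libraries they lay between 0.585 and 1.17. Psmb5 shares 57.1% of its 50-base windows with other annotated transcripts, so its level is uncertain.

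Other genes of the pathway were taken from lists chosen with earlier results of these data known. Of 11 peptide loading partners, 3 passed upward and 0 downward, with a median of 0.18 (log2). They were Calr, encoding calreticulin (716 ± 75.8 CPM in STZ and 432 ± 15.0 CPM in control, SD, n = 3 each; 0.73 ± 0.10), Pdia3, encoding the disulfide isomerase ERp57 (786 ± 63.2 CPM in STZ and 534 ± 31.6 CPM in control; 0.56 ± 0.10), and Canx, encoding the membrane chaperone calnexin (0.33 ± 0.09, adjusted p = 0.0350). Canx did not pass in fits that left out control pool 1, with an adjusted p of 0.126, or the first or the third STZ pool, with 0.153 each, nor with a replicate block (adjusted p = 0.0844). These chaperones serve most glycoproteins of the endoplasmic reticulum and not only class I molecules.

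Of 14 subunits of the constitutive 20S proteasome, 0 were called by edgeR, DESeq2 or limma-voom, although 13 lay above 0, 6 had an unadjusted p under 0.05, and the median was 0.21. Over all tested genes 48.2% lay above 0, and 12.2% were higher at an unadjusted p under 0.05. Psmb5, Psmb6 and Psmb7 had log2 fold changes of 0.19 ± 0.13, 0.22 ± 0.11 and 0.10 ± 0.09. Among 21 genes of the 19S regulatory particle, which unfolds substrates, 2 were called higher, Psmd5 (0.38 ± 0.10) and Psmc2 (0.34 ± 0.09), 0 were called lower and 20 lay above 0. Psmc2 did not pass without control pools 1 or 2 or STZ pools 1 or 3 (adjusted p up to 0.198), nor with a replicate block (adjusted p = 0.0502), and Psmd5 passed without control pool 1 but not without any other library (up to 0.127). Of 9 proteasome activator and assembly genes, the assembly chaperone gene Psmg2 was called lower (-0.48 ± 0.13) and 0 were called higher. Psmg2 did not pass without control pools 1 or 2 or STZ pools 1 or 3 (adjusted p up to 0.141), nor with a replicate block (adjusted p = 0.0527). Of 9 cytosolic peptidases, 0 were called by any of the 3 tools and 2 had an unadjusted p under 0.05, Prep (-0.29 ± 0.10) and Blmh (-0.19 ± 0.09).

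Regulators of class I transcription were listed with the interferon receptors and their kinases. Of 23 tested regulators and interferon signalling genes, edgeR, DESeq2 and limma-voom each called 0 higher and 2 lower, 4 were higher and 4 lower at an unadjusted p under 0.05, and the median was -0.03. The called genes were Rfx5, a subunit of the complex that binds the X box of MHC promoters (36.7 ± 1.14 CPM in STZ and 48.2 ± 3.32 CPM in control pools; -0.39 ± 0.10, adjusted p = 0.0317), and Ifngr2, the signalling chain of the interferon gamma receptor (48.9 ± 2.30 CPM in STZ and 65.9 ± 7.26 CPM in control pools; -0.43 ± 0.10, adjusted p = 0.0192). Rfx5 passed without control pool 2 but not without any other library (adjusted p up to 0.118), nor with a replicate block (adjusted p = 0.0635). Ifngr2 did not pass without control pool 1 (0.104) or without any 1 STZ pool (0.0516 to 0.0715). Nlrc5, the class I transactivator, had 64.8, 73.3 and 69.7 CPM in STZ pools against 68.1, 56.2 and 50.4 CPM in control pools (0.24 ± 0.11, adjusted p = 0.217). Irf1, which carries interferon signals to these promoters, did not pass either (0.17 ± 0.09, adjusted p = 0.241). Nlrc5 and Irf1 were chosen after their values were seen.

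Of 32 tested interferon-induced genes, 3 were called higher and 1 lower, 16 lay above 0, and the median was -0.00. Bst2, encoding the virus-tethering protein tetherin (245 ± 16.8 CPM in STZ and 179 ± 15.7 CPM in control; 0.45 ± 0.10), and the interferon regulatory factor gene Irf7 (0.33 ± 0.09) were called higher, and so was the ubiquitin-like modifier gene Isg15 (0.46 ± 0.13, adjusted p = 0.0443), which was chosen after its values were seen. Gbp4, a guanylate-binding protein, was the one called lower (-0.51 ± 0.11). Bst2 lost its call without STZ pool 1, Gbp4 without control pool 1 or STZ pool 1, Irf7 without any library but control pool 1 and with a replicate block (adjusted p = 0.0641), and Isg15 without any library but STZ pool 2. Irf7 also lost its call with upper-quartile normalization, and Isg15 with that, with limma-voom, without the robust option and with thinned counts. DESeq2 called 4 genes of the list higher and limma-voom called 2, each with 1 lower.

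Among 13 tested further class I genes of the H2 region, 0 were called by edgeR, DESeq2 or limma-voom, 0 had an unadjusted p under 0.05, and the median was 0.02. H2-Q4 was the most abundant per kilobase and had 514, 518 and 510.2 CPM in STZ pools against 503, 480.4 and 349.7 CPM in control pools (0.21 ± 0.12, adjusted p = 0.330). Several of these genes are listed over nearly the same bases, so the 13 rows are not independent. H2-Q6 counts were 0.956 to 0.990 of H2-Q8 counts in the 6 libraries, and H2-T9 counts were 0.859 to 0.917 of H2-T22 counts. H2-Q7 and H2-Q9 also overlap. H2-Q6 stood at 88.9, 70.9 and 85.3 CPM in STZ pools against 119, 149.7 and 52.1 CPM in control pools, so control pool 3 departed from the other controls, and without it H2-Q6 (-0.71) and H2-Q8 (-0.69) were called lower, with adjusted p of 0.00238 and 0.00215. H2-K2, a transcribed pseudogene next to H2-K1 that was chosen after its values were seen, was called lower. It had 49.1, 55.9 and 47.9 CPM in STZ pools against 91.6, 83.5 and 77.1 CPM in control pools, a log2 fold change of -0.73 ± 0.10 (adjusted p = 0.000563). Of 5 tested class I-like genes outside the region, 0 were called by any of the 3 tools and 1 had an unadjusted p under 0.05, Mr1, which presents vitamin B metabolites (0.39 ± 0.14, adjusted p = 0.0960). Between the first and last member on chromosome 17, 91 other genes were tested, of which 6 were called higher (6.59%) and 4 lower, with a median of -0.06.

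Summed endothelial and summed mesangial and mural markers separated the groups, and summed podocyte, tubule and leukocyte markers overlapped. All 10 endothelial markers were tested, 5 were called higher and 0 lower. Among those called, Ehd3, a membrane-trafficking gene, had a log2 fold change of 0.80 ± 0.11, the VEGF receptor gene Kdr of 0.61 ± 0.10, the junction genes Esam of 0.58 ± 0.09 and Cdh5 of 0.47 ± 0.10, and the sialomucin gene Emcn of 0.42 ± 0.11. Emcn did not pass without control pool 1 or STZ pools 1 or 3 (adjusted p up to 0.182), nor with a replicate block (adjusted p = 0.0635). The angiopoietin receptor gene Tek (0.02 ± 0.09) and the related Tie1 (-0.01 ± 0.09), chosen after their values were seen, did not pass. Ehd3 and Emcn made up 48.0% of the summed endothelial level in STZ pools and 42.5% in control pools. Summed mesangial and mural markers lay at 542 to 1064 CPM in STZ pools and 1282 to 1387 CPM in control pools, with 2 of 11 called lower, Cspg4 (-1.28 ± 0.16) and Myh11 (-0.79 ± 0.17), of which Myh11 did not pass without control pools 1 or 2 or STZ pool 1 (adjusted p up to 0.0886). DESeq2 called 4 of the 11 lower, limma-voom called 6, and 7 were lower at an unadjusted p under 0.05. Podocyte markers summed to 4778 to 5922 CPM in STZ and 4442 to 7188 CPM in control pools. Most of that sum was Podxl, with means of 3708 CPM in STZ and 3581 CPM in control pools (0.05 ± 0.13). The median log2 fold change of the 10 was -0.62, and 1 lay above 0. With all 6 libraries 0 of 10 were called by edgeR, DESeq2 or limma-voom, and 2 were lower at an unadjusted p under 0.05. Without control pool 3, 8 were called lower. Tubule markers summed to 43.5 to 231 CPM in STZ and 147 to 472 CPM in control pools, with 1 of 8 called lower, Slc12a1 (-3.16 ± 0.64, adjusted p = 0.0497), which did not pass without control pool 3 or without any 1 STZ pool, nor with a replicate block (adjusted p = 0.0534). In 9 of 16 alternative settings, these among them, Slc12a1 kept its direction but did not pass. The part of these cell types in the chain differences was not tested. In bulk RNA fewer cells of a type and less RNA per cell cannot be told apart.

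When each member was expressed per summed endothelial marker count, B2m was 17.7%, 16.7% and 17.5% in STZ pools against 15.3%, 17.6% and 13.5% in control pools. On that scale the groups overlapped for all 4 chain genes, and STZ pools lay below control pools for all 6 transport, loading and proteasome genes. Tap1 was 0.470%, 0.539% and 0.498% in STZ pools against 0.740%, 0.754% and 0.712% in control pools. This scaling, chosen after the data were seen, moved the median of all genes to -0.46. Under it 8269 genes over the whole table were called lower and 174 higher. The share of all genes that lay wholly below on that scale is not given, so the 6 members cannot be set against it. The log2 fold changes of B2m, H2-D1, H2-K1 and H2-T23 were then 0.16, 0.02, -0.06 and -0.18. Relative to that median the 4 values are positive by construction, because taking off the shifted median undoes the scaling.

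Leukocytes also carry class I molecules. Of 26 leukocyte markers 12 were listed, and they summed to 175 to 207 CPM in STZ pools and 179 to 248 CPM in control pools. The pan-leukocyte gene Ptprc had 36.1, 40.7 and 30.6 CPM in STZ pools against 42.1, 48.0 and 44.6 CPM in control pools (-0.33 ± 0.12, adjusted p = 0.125). Of the 12, 2 were called lower and 0 higher, among them the B cell gene Cd79a (-1.71 ± 0.31, adjusted p = 0.00565). The median was 0.24 and 7 of the 12 lay above 0, with the myeloid genes Lyz2 (0.66 ± 0.20, adjusted p = 0.0572), Tyrobp (0.56 ± 0.37), Csf1r (0.50 ± 0.25) and Itgax (0.41 ± 0.26) among them. These 4 were chosen after their values were seen, and STZ pools lay wholly above control pools for Lyz2 and Csf1r. Lyz2 passed without control pool 2 (adjusted p = 0.0386) and with thinned counts (0.0177). Of 6 tested class II presentation genes, H2-Ob was called lower (-0.90 ± 0.15) and 0 were higher, and the invariant chain gene Cd74 stood at 47.9 ± 14.8 CPM in STZ and 70.8 ± 24.7 CPM in control pools (-0.55 ± 0.36, adjusted p = 0.445). The part of leukocytes in the chain differences was not tested.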

How the data were processed

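RNA of sorted glomerular endothelial cells was analysed from 1 deposited table per library, 3 STZ and 3 control. The values are expected counts as deposited by the authors. They are multiples of 0.5, and 2251 of 12911 genes, 2 of the 10 members among them, hold a fractional value. Per the submitters' processing notes, the build was mm10 and limma was used. No source used here gives the aligner, the counter or the strand setting. Listed starts were raised by 1 to give 1-based coordinates. The 34 blank cells, none of them in a member, were read as 0.

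Counts were rounded, and edgeR 4.0.16 (R 4.3.3) gave the test (filterByExpr, TMM, robust quasi-likelihood fit, two-sided F test, Benjamini-Hochberg over 12786 genes, threshold 0.05). CPM use the normalised library size. Intervals are 95% intervals of the fitted log2 fold change. P-values measure the spread between pools of 4 mice, and the labels do not say how the pools were formed. Ratios of counts per kilobase were compared by exact permutation over libraries. The pipeline was tested on simulated data.

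Members and gene lists were chosen with earlier results of these data known. Named genes were all members, Psmb5, Psmb6 and Psmb7, up to 3 called genes of each list with the smallest p (where none was called, the 2 with the smallest p), abundant markers and sex-linked genes, and part of them is printed. Some results are not reported here. Motif letters were chosen with the sequences in view. Alternatives were other normalizations and filters, DESeq2 1.42.0, limma-voom 3.58.1, a fit that was not robust, a replicate block, thinning to the smallest total and leaving out each library.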

Additional observations from a re-analysis of the deposited data

How the results depend on the processing

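Every p rests on 3 pools a group, and control libraries were the shallower ones. Under every setting but the endothelial scaling, B2m kept its direction and its call, with log2 fold changes from 0.50 to 0.72. DESeq2 size factors, upper-quartile normalization, both filters, limma-voom and the fit that was not robust left 2 members called higher and 0 lower, while DESeq2 and thinning called 3 and 0. Without 1 library the members called higher ran from 1 to 2 and those called lower stayed at 0. Genes called higher over the whole table ran from 426 (without STZ pool 1) to 695, and genes called lower from 236 (without STZ pool 1) to 596, with 276 lower without control pool 1 and 355 without STZ pool 3.

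The labels do not say whether replicate numbers pair the libraries. Deviations from the group means of same-numbered libraries correlated at 0.119, -0.128 and -0.163 across genes. No library correlated best with its own number, but so few libraries cannot show that pairing is absent. With the replicate number as a block, 571 genes were called higher and 430 lower, and 2 members higher and 0 lower. The exact sign-flip test gave p = 0.25 for B2m over heavy chains, the smallest that 3 pairs allow, and 0.5, 0.25 and 0.75 for the subunit ratios Psmb8 over Psmb5, Psmb9 over Psmb6 and Psmb10 over Psmb7.

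Without 1 library the log2 difference of B2m over summed heavy chains ran from 0.17 to 0.24, of Psmb8 over Psmb5 from -0.24 to -0.03, of Psmb9 over Psmb6 from -0.32 to -0.13 and of Psmb10 over Psmb7 from -0.11 to 0.016.

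Log2 fold changes of uncalled genes near 0 changed sign, and the cause was not tested. After thinning Tap2 stood at -0.043 and Psmb9 at 0.067. Without 1 library Tap2 ran from -0.031 to 0.070, Tapbp from -0.035 to 0.11, Psmb9 from -0.13 to 0.048, Psmb10 from -0.037 to 0.13, Tek from -0.032 to 0.053 and Tie1 from -0.040 to 0.040. Tek stood at -0.00024 with upper-quartile normalization. Among called genes, Rfx5 kept its direction but did not pass in 7 of the 16 alternative settings. Psmd5, Psmc2 and Psmg2 did so in 6 each, and Emcn in 5.

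Scaling to summed endothelial markers, chosen after the data were seen, shifted the median of all genes to -0.46. It left 174 genes higher and 8269 lower, and 0 members higher and 6 lower, by its construction. Signs then turned for H2-K1 (-0.062), H2-T23 (-0.18), Tap2 (-0.43), Tapbp (-0.41), Psmb8 (-0.39), Psmb10 (-0.41), Psmb5 (-0.25), Psmb6 (-0.23), Psmb7 (-0.35), H2-L (-0.030), H2-Q4 (-0.24), Canx (-0.12), Psmc2 (-0.12), Psmd5 (-0.072), Nlrc5 (-0.20), Irf1 (-0.28), Irf7 (-0.12), Bst2 (-0.0011), Mr1 (-0.058), Itgax (-0.039), Tek (-0.44) and Emcn (-0.034).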
